A study of Mus musculus with 32 samples.

Results

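The Fc gamma receptors of the mouse and the signalling chain that they share were followed over all 8 genotype-by-time groups of an LPS time course in bone marrow-derived macrophages (BMDMs). The 5 genes, of 25067 in the table, are Fcgr1, Fcgr3 and Fcgr4, which encode the activating receptors for immunoglobulin G, Fcgr2b, which encodes the inhibitory receptor, and Fcer1g, which encodes the common gamma chain. They were taken by name, with the most highly counted transcript standing for each gene. They were in part selected on the counts of the 0 h libraries, since Fcgr3, Fcgr4 and Fcer1g lie in a stretch of chromosome 1 that differed there between genotypes. The genotype difference at 0 h is therefore given as a description, with no test.

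Poly(A) RNA was sequenced from 32 libraries, 4 in each group. BMDM-WT and BMDM-Nur77-KO were grown from the marrow of male mice aged 6 to 12 weeks. The medium, conditioned by L929 cells, supplied the macrophage growth factor Csf1. Both genotypes were left untreated (0 h) or given 100 ng/ml lipopolysaccharide (LPS), the bacterial product sensed by Toll-like receptor 4, for 1, 5 or 18 h. Nur77, encoded by Nr4a1, is a nuclear receptor and transcription factor. Its deletion was whole-body: a floxed Nr4a1 locus was recombined by Cre driven from the CMV promoter, and Cre was then bred out, with WT littermates as controls. The paper names C57Bl6/J for the mice that carried Cre and gives no strain for those with the floxed locus. The labels give the genotype of the knockout libraries as cre. The number of animals behind the 4 libraries of a group is not given in the sources used here, so p-values measure the spread between these samples, which may be technical.

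Library totals ran from 8742362 to 15780926 counts, with a median of 11847140. Nr4a1 itself was lower in the knockout libraries at 0 h, 1 h and 5 h, with no overlap between genotypes. At 1 h of LPS, its peak, BMDM-WT held 484, 485, 359 and 421 CPM (counts per 1000000 of the library total after scaling by edgeR's trimmed mean of M-values, TMM) and BMDM-Nur77-KO 243, 180, 147 and 193 CPM, so that reads from the locus were reduced and not absent. At 5 h both genotypes were low, with 7 to 9 counts in BMDM-WT and 1 to 7 in BMDM-Nur77-KO, separate only after scaling. At 18 h both genotypes were under 1 CPM and overlapped. All 7 macrophage markers passed the filter on low levels (a mean above 1 RPKM, which is CPM per kilobase of transcript, in at least 1 group), with a summed level of 9821 to 18686 CPM per library. Their sum was lower in BMDM-Nur77-KO without overlap at 5 h, at 12603 to 15355 against 15495 to 16955 CPM in BMDM-WT, and at 18 h, at 9821 to 11239 against 12440 to 12995 CPM. The genotypes overlapped at 0 h and 1 h. The 6 mast cell and basophil markers, cells that also use the common gamma chain, had at most 3 counts in any library. The same held for the 4 erythroid markers. The 8 neutrophil markers, of a cell type that also carries these receptors, summed to 17.8 to 30.3 CPM in BMDM-WT and 27.1 to 35.3 CPM in BMDM-Nur77-KO at 0 h. At 1 h they were higher in the knockout without overlap, at 28.1 to 37.7 against 43.3 to 52.0 CPM. At 5 h they summed to 32.2 to 45.3 against 40.2 to 48.6 CPM and at 18 h to 18.4 to 22.7 against 20.8 to 24.5 CPM, with overlap. The part of the macrophage and neutrophil marker levels in the results below was not tested.

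Fc gamma receptors bind the constant part of immunoglobulin G and so let a macrophage recognise, engulf and respond to antibody-coated particles. The activating receptors carry no signalling motif of their own. They assemble with the common gamma chain, whose immunoreceptor tyrosine-based activation motif is phosphorylated by Src family kinases and recruits the kinase Syk, and in mice the chain is needed for their display at the cell surface. The inhibitory receptor carries an inhibitory motif in its own tail, which recruits the lipid phosphatase SHIP-1 (Inpp5d) when it is bound together with an activating receptor. Interferon gamma is known to raise Fcgr1 and Fcgr4. In bulk RNA, fewer cells of a type and less RNA per cell cannot be told apart.

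On mm10 (GRCm38), Fcgr1 (NM_010186) lies on chromosome 3 from 96282909 to 96293969, on the minus strand. The other members share a 274 kb span of chromosome 1. Fcgr2b (NM_010187) runs from 170960558 to 170976071 on the minus strand, Fcgr4 (NM_144559) from 171018926 to 171029761 on the plus strand, Fcgr3 (NM_001356511) from 171051169 to 171065915 on the minus strand, and Fcer1g (NM_010185) from 171229572 to 171234349 on the minus strand. An antisense gene, Gm38204, overlaps Fcgr2b, and whether the counting used strand is not stated. Fcgr2b and Fcgr3 are related in sequence: 11.7% of the 50-base windows of the Fcgr2b transcript also occur in Fcgr3, and none of the 150-base windows, the read length used here. The split of reads between these 2 genes is uncertain to that extent.

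The 250 bases upstream of the annotated starts (RefSeq, GRCm38.p6) are shown for Fcgr1 and Fcgr4, whose levels ran together over the libraries, and for Fcgr2b, whose genotype difference was the widest. Capitals mark matches, on either strand, to the gamma-activated site TTCNNNGAA, the interferon response core (GAAA, any 2 bases, GAAA) and the PU.1 box GAGGAA. The letters are written 5′ to 3′ on the strand of the gene, and each stretch ends at the base before the start.
Fcgr1, chr3:96293970-96294219, minus strand: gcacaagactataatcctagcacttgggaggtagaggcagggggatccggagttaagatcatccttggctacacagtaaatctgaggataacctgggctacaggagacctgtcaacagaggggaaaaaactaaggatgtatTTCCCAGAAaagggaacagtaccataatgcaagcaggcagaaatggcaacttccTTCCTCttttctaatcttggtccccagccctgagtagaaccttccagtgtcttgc
Fcgr4, chr1:171018676-171018925, plus strand: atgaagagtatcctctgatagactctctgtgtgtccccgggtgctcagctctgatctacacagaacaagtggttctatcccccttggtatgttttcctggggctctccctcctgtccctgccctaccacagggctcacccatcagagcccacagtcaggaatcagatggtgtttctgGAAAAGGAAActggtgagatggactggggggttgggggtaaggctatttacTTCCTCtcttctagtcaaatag
Fcgr2b, chr1:170976072-170976321, minus strand: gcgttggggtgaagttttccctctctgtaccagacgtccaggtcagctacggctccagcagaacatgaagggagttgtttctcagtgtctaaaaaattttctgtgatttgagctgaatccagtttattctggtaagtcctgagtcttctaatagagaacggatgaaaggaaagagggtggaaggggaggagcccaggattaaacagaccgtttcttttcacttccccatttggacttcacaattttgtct

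Fcgr1 held a gamma-activated site 109 to 101 bases before its start and a PU.1 box at 55 to 50 bases. Fcgr4 held the interferon response core 73 to 64 bases before its start and a PU.1 box at 22 to 17 bases. Of 32851 promoters searched in the same window, 7.02% held the gamma-activated site, 2.98% the interferon response core and 23.3% the PU.1 box. The Fcgr2b stretch held none of the 3, nor TGANTCA (AP-1, in 6.75% of promoters) or the NF-kB consensus (in 3.9%). AAAGGTCA (NBRE, the motif that Nur77 binds as a monomer, in 1.34%) was absent from it as well. The NBRE and AP-1 letters were in none of the stretches of the 5 members either. The NF-kB consensus matched in Fcgr4 and at both annotated starts of Fcgr3, 152 to 143 and 161 to 152 bases before them, and the PU.1 box was also present at both Fcgr3 starts. These matches are descriptions of letters in a short window, not binding sites.

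Before LPS, Fcer1g and Fcgr3 stood well above the other members. Per length of transcript, Fcer1g had the highest level in BMDM-WT, at 736 RPKM, followed by Fcgr3 at 455 RPKM, and each was separate from the next over the libraries. Fcgr4 at 75.5, Fcgr1 at 73.1 and Fcgr2b at 58.9 RPKM overlapped their neighbours in this order. BMDM-Nur77-KO had the same top members, Fcer1g at 407 and Fcgr3 at 296 RPKM, while Fcgr2b at 53.6, Fcgr4 at 48.3 and Fcgr1 at 46.1 RPKM again overlapped. After 18 h of LPS, Fcgr1 had passed Fcgr3 in both genotypes. It reached 629 RPKM in BMDM-WT, against 451 for Fcgr3, 387 for Fcgr4 and 271 for Fcgr2b, every step separate from the next. In BMDM-Nur77-KO Fcgr1 reached 511 RPKM, Fcgr3 291, Fcgr4 262 and Fcgr2b 64.4, with only Fcgr3 and Fcgr4 overlapping. Fcer1g stayed the highest member in all 8 groups.

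**Figure D1:**
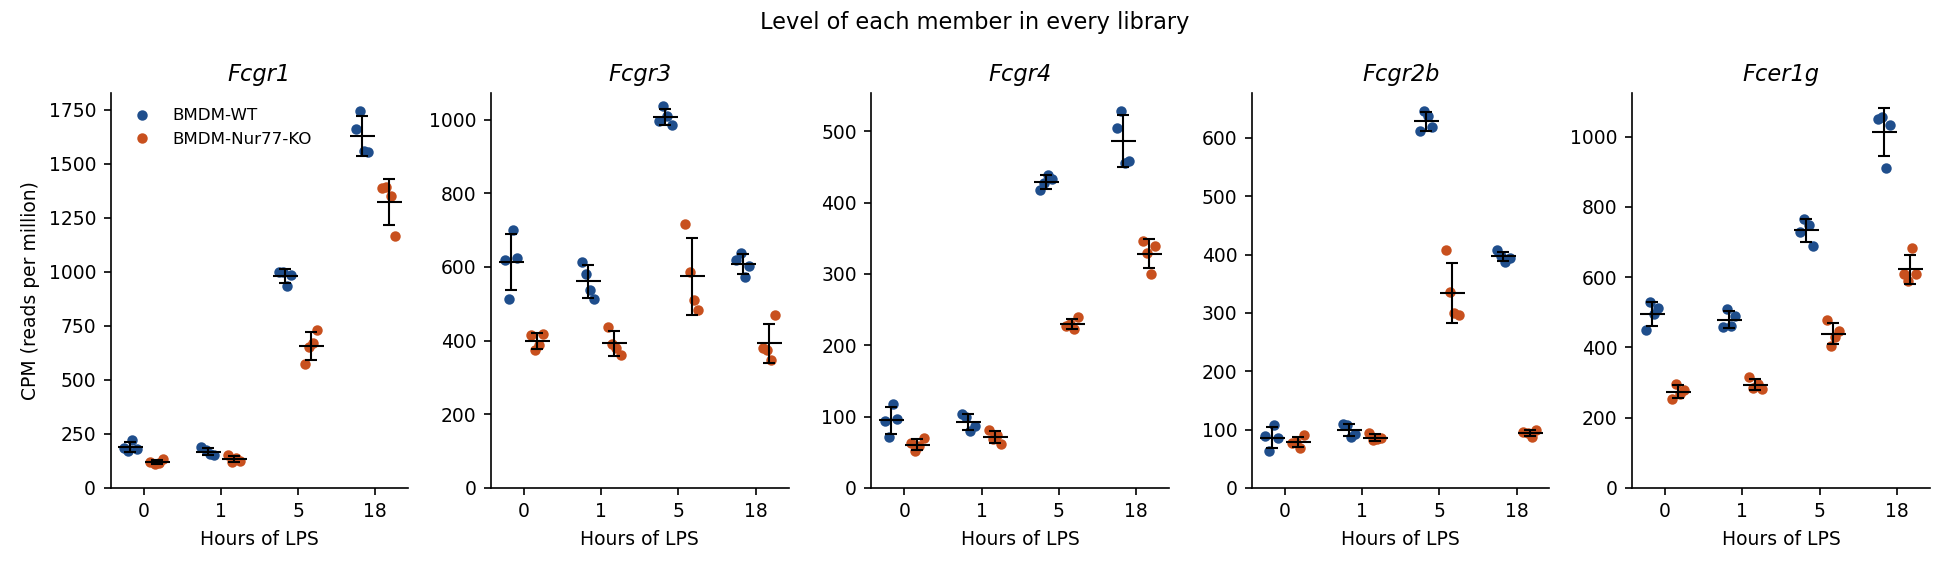
Level of each member in CPM (vertical axis, from 0) against hours of LPS, for BMDM-WT (blue) and BMDM-Nur77-KO (orange). Points are libraries, 4 in a group, and black bars are the mean and SD. At 5 h and at 18 h every knockout library lies below every WT library in all 5 panels, and Fcgr2b at 18 h, at 87.6 to 99.3 CPM in the knockout, lies close to its level before LPS.

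The resting levels of 4 of the 5 members were lower in BMDM-Nur77-KO. Fcer1g had 449, 528, 495 and 513 CPM in BMDM-WT and 254, 296, 268 and 279 CPM in BMDM-Nur77-KO (log2 fold change -0.86). Fcgr1 had 186, 172, 221 and 178 against 119, 109, 117 and 133 CPM (-0.66). Fcgr4 had 94.1, 71.0, 117 and 96.8 against 62.5, 51.7, 58.4 and 70.1 CPM (-0.64). In these the genotypes did not overlap. Fcgr3 was also separate, with 618, 514, 699 and 623 against 416, 374, 387 and 417 CPM (-0.62). Fcgr2b was not, with 88.2, 64.0, 107 and 85.6 against 76.2, 78.1, 68.6 and 90.6 CPM (-0.13). The members were picked with this contrast known, so these differences support nothing by themselves; 6.34% of all genes tested were called lower in it.

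The rule of choice named only the difference at 0 h, though earlier results of these data were known. In the libraries given LPS, edgeR's quasi-likelihood test was run on the genotype difference and adjusted over 11186 genes. These libraries compare the same genotypes, and 4 of the 5 members were already lower at 0 h. The counts of members called are therefore not independent of the choice. A gene was called at an adjusted p under 0.05, and the number past a log2 fold change of 0.58 either way, the limit used in the study, is given as well. At 1 h, 4 of the 5 members were called lower in BMDM-Nur77-KO, where 3.06% of all genes were, and 1 passed the limit, as did 1.36% of all genes downward. At 5 h and at 18 h all 5 were called lower, where 10.7% and 9.93% of all genes were, and 4 and 3 passed the limit, against 3.14% and 4.17%. All libraries of the knockout lay below all those of BMDM-WT in 2 of 5 members at 1 h and in 5 of 5 at 5 h and at 18 h, against 9.23%, 9.92% and 10.3% of all genes. The median log2 fold change of the members was -0.37, -0.81 and -0.63 at the 3 times, and that of all genes lay between -0.01 and 0.02.

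**Figure D2:**
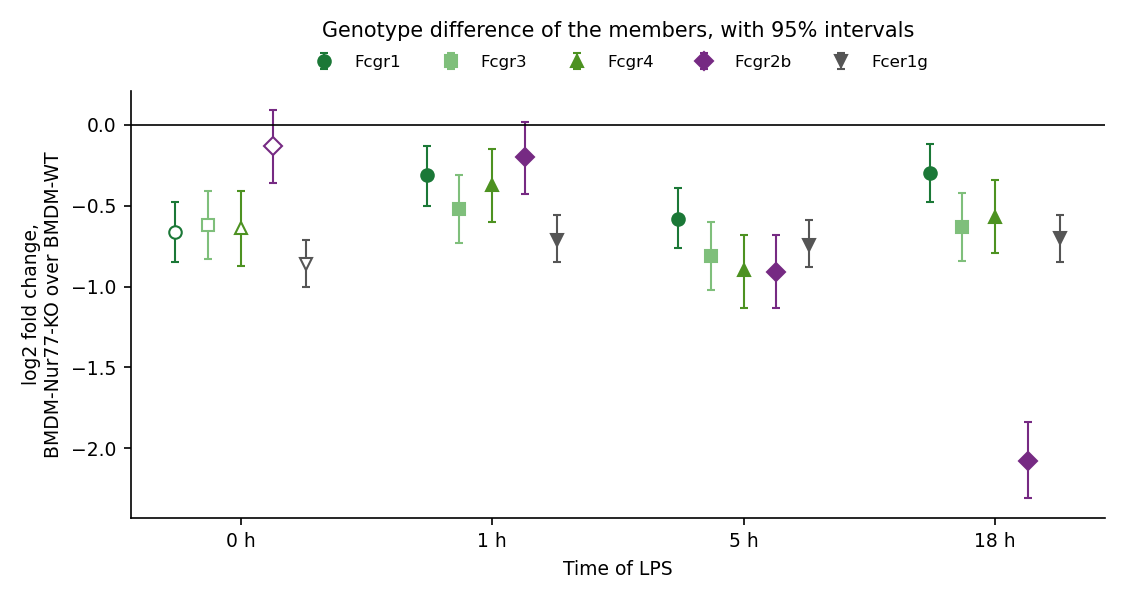
Log2 fold change of BMDM-Nur77-KO over BMDM-WT (vertical axis) for each member at 0, 1, 5 and 18 h of LPS, with 95% intervals from the edgeR fit. Open symbols at 0 h are described only, with no test. Fcer1g stays between -0.86 and -0.70, while Fcgr2b goes from -0.13 to -2.08.

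Fcer1g, the common gamma chain, showed the steadiest difference. At 1 h it had 457, 508, 462 and 489 CPM in BMDM-WT and 315, 283, 297 and 281 CPM in BMDM-Nur77-KO, which gave -0.71 on the log2 scale (standard error 0.07, adjusted p = 2.3e-08). At 5 h it had 729, 767, 749 and 688 against 477, 404, 430 and 447 CPM (-0.74, standard error 0.07, adjusted p = 6.7e-09). At 18 h it had 1052, 1056, 912 and 1034 against 609, 588, 683 and 608 CPM (-0.70, standard error 0.07, adjusted p = 5.4e-09). The knockout libraries thus held 61.3%, 59.9% and 61.4% of the WT level at the 3 times, and the genotypes never overlapped. The change from 1 h to 18 h differed between genotypes by a log2 value of 0.00 (95% interval -0.20 to 0.20, adjusted p = 1), and that from 1 h to 5 h by -0.03 (-0.24 to 0.17, adjusted p = 0.84).

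Fcgr1, the high-affinity receptor, had its widest difference among the LPS times at 5 h. At 1 h the genotypes overlapped, with 187, 173, 156 and 150 CPM in BMDM-WT and 151, 121, 139 and 126 CPM in BMDM-Nur77-KO (log2 fold change -0.31, standard error 0.09, adjusted p = 0.031). At 5 h they were separate, with 1001, 1000, 936 and 986 against 573, 654, 671 and 729 CPM (-0.58, standard error 0.09, adjusted p = 3.1e-05). At 18 h they were closer again, with 1661, 1744, 1560 and 1553 against 1387, 1393, 1349 and 1166 CPM (-0.30, standard error 0.09, adjusted p = 0.015). The calls at 1 h and 18 h were not firm. The first was lost without the filter on low counts (adjusted p = 0.052) and when any of replicates 2, 3 or 4 of the knockout or 1 or 2 of BMDM-WT was left out (adjusted p = 0.05 to 0.15), and the second without knockout replicate 4 (0.07) or WT replicate 2 (0.055).

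Fcgr3, the low-affinity activating receptor, was lower at every time. At 1 h it had 613, 580, 538 and 513 CPM in BMDM-WT and 438, 390, 379 and 361 CPM in BMDM-Nur77-KO (log2 fold change -0.52, standard error 0.10, adjusted p = 0.0011). At 5 h it had 997, 1036, 1011 and 984 against 716, 587, 511 and 483 CPM (-0.81, standard error 0.10, adjusted p = 1.3e-06). At 18 h it had 620, 638, 572 and 602 against 379, 375, 348 and 468 CPM (-0.63, standard error 0.10, adjusted p = 2.3e-05). The genotypes were separate throughout. Knockout replicate 1 at 5 h, the highest of its group here and in Fcgr2b, also had the lowest mean correlation with the other libraries of its group over all genes, and without it the Fcgr3 difference at 5 h was -0.93.

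Fcgr4, which binds IgG2a and IgG2b in mice, differed most at 5 h by fold. At 1 h the genotypes overlapped, with 104, 99.6, 79.9 and 86.1 CPM in BMDM-WT and 81.7, 68.2, 74.2 and 61.0 CPM in BMDM-Nur77-KO (log2 fold change -0.37, standard error 0.11, adjusted p = 0.039). This call was lost without any of 5 libraries, knockout replicates 2, 3 or 4 or WT replicates 1 or 2 (adjusted p = 0.061 to 0.17). At 5 h it had 417, 427, 439 and 433 against 227, 229, 222 and 239 CPM (-0.90, standard error 0.11, adjusted p = 6.3e-07). The libraries of each genotype lay within a narrow range there. At 18 h it had 504, 529, 455 and 458 against 346, 329, 300 and 339 CPM (-0.57, standard error 0.11, adjusted p = 0.00022). The change from 1 h to 5 h was lower in the knockout by a log2 value of -0.53 (adjusted p = 0.0497), a call that was lost under most of the other settings tried.

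Fcgr2b, the inhibitory receptor, followed a course of its own. At 1 h the genotypes overlapped and were not called different, with 109, 108, 87.4 and 93.0 CPM in BMDM-WT and 94.5, 81.5, 83.4 and 85.6 CPM in BMDM-Nur77-KO (log2 fold change -0.20, 95% interval -0.43 to 0.02, adjusted p = 0.37). At 5 h both had risen, to 612, 647, 637 and 619 CPM in BMDM-WT and 407, 336, 299 and 297 CPM in BMDM-Nur77-KO (-0.91, standard error 0.11, adjusted p = 5.6e-07). At 18 h BMDM-WT held 407, 398, 388 and 394 CPM, while BMDM-Nur77-KO had 96.3, 93.2, 87.6 and 99.3 CPM (-2.08, standard error 0.11, adjusted p = 2.5e-14). The knockout thus held 23.7% of the WT level, and its libraries overlapped those of both genotypes at 0 h and at 1 h. The change from 1 h to 18 h differed between genotypes by a log2 value of -1.87 (standard error 0.16, adjusted p = 9.8e-10), and that from 1 h to 5 h by -0.71 (standard error 0.16, adjusted p = 0.0084). Over all genes, 4.72% were called lower in the first of these comparisons of change and 1.76% in the second. The 18 h difference stayed between -2.10 and -2.04 under every alternative setting and with any single library left out.

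The response to LPS within each genotype shares the 0 h libraries with the contrast that was known when the members were picked, and is read here for its course over time. At 1 h no member was called in either genotype by edgeR, where 20.3% of all genes in BMDM-WT and 12.3% in BMDM-Nur77-KO were. At an unadjusted p under 0.05, edgeR gave 1 member, Fcgr4 in BMDM-Nur77-KO (log2 fold change 0.23, adjusted p = 0.24). At 5 h all 5 members were called higher than at 0 h in both genotypes, where 30.1% and 32.2% of all genes were. Fcgr1, Fcgr2b and Fcgr4 rose the most, by log2 values of 2.37, 2.87 and 2.18 in BMDM-WT and 2.46, 2.09 and 1.92 in BMDM-Nur77-KO. Fcgr3 rose by 0.72 and 0.53, and Fcer1g by 0.56 and 0.68.

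From 5 h to 18 h the members parted. Fcgr1, Fcgr4 and Fcer1g were higher at 18 h than at 0 h in both genotypes, with log2 fold changes of 3.11, 2.36 and 1.03 in BMDM-WT and 3.47, 2.44 and 1.18 in BMDM-Nur77-KO. Fcgr1 thus stood at 8.62 times its resting level in BMDM-WT and 11.1 times in BMDM-Nur77-KO. Fcgr3 was back at its resting level within its spread, with log2 fold changes of -0.01 (95% interval -0.22 to 0.20) and -0.02 (-0.23 to 0.19). Fcgr2b remained higher than at rest in BMDM-WT, by 2.21 (standard error 0.11), and by 0.26 in BMDM-Nur77-KO (standard error 0.11, adjusted p = 0.037 in edgeR's quasi-likelihood test). The knockout libraries at 18 h and 0 h overlapped for Fcgr2b, and the call was lost without any of 6 libraries (adjusted p = 0.054 to 0.13): knockout replicates 1, 2 or 3 at 0 h or 1, 2 or 4 at 18 h. In all, 4 members were called higher at 18 h in each genotype, where 32.4% of all genes in BMDM-WT and 33.9% in BMDM-Nur77-KO were.

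The order of the 8 groups differed between the members. For Fcgr1 it ran by time, with both 18 h groups above both 5 h groups, and each of these 4 separate from the next. For Fcgr4 it ran from BMDM-WT at 18 h, 486 CPM, to BMDM-WT at 5 h, 429 CPM, then BMDM-Nur77-KO at 18 h, 329 CPM, and at 5 h, 229 CPM, all separate. For Fcer1g the knockout at 5 h, 440 CPM, overlapped BMDM-WT at 1 h, 479 CPM, and had a mean below that of untreated BMDM-WT, 496 CPM. For Fcgr3 the highest level of the knockout, 574 CPM at 5 h, overlapped BMDM-WT at 18 h (608 CPM) and at 1 h (561 CPM). The knockout at 0 h, 1 h and 18 h, at 399, 392 and 393 CPM, was at the bottom for Fcgr3 and overlapped among themselves. For Fcgr2b the knockout at 5 h, 335 CPM, overlapped BMDM-WT at 18 h, 397 CPM, as its highest library reached 407 CPM.

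The balance of activating to inhibitory transcripts moved with these levels. It was taken per library as the summed RPKM of Fcgr1, Fcgr3 and Fcgr4 over that of Fcgr2b, and carries no p, since it is a score over the chosen genes. Before LPS it was 10.0, 11.5, 9.57 and 10.4 in BMDM-WT and 7.77, 6.76, 8.07 and 6.72 in BMDM-Nur77-KO. At 1 h it was 8.20, 7.79, 8.76 and 7.98 against 6.94, 7.00, 6.91 and 6.24. In both the knockout lay lower, without overlap. At 5 h the ratios met, at 3.48, 3.38, 3.35 and 3.44 in BMDM-WT and 3.35, 3.79, 3.99 and 4.09 in BMDM-Nur77-KO. At 18 h they were reversed, at 5.40, 5.76, 5.23 and 5.23 in BMDM-WT and 16.6, 16.9, 17.0 and 15.7 in BMDM-Nur77-KO. The mean at 18 h was 5.41 ± 0.25 (SD, n = 4) in BMDM-WT and 16.6 ± 0.591 (SD, n = 4) in BMDM-Nur77-KO. With all transcript rows of each gene summed, these means were 3.53 and 10.5. The numerator was lower in the knockout, since all 3 activating receptors were, so the higher ratio came with the lower Fcgr2b. The make-up of the ratio also changed over time. Fcgr3 over Fcgr2b alone averaged 7.83 in BMDM-WT and 5.56 in BMDM-Nur77-KO before LPS, and 1.66 and 4.52 at 18 h. In the knockout this part was thus no higher at 18 h than at rest (4.27 to 5.11 against 5 to 6.11). The rise of the knockout's summed ratio over rest lay in Fcgr1 and Fcgr4.

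**Figure D3:**
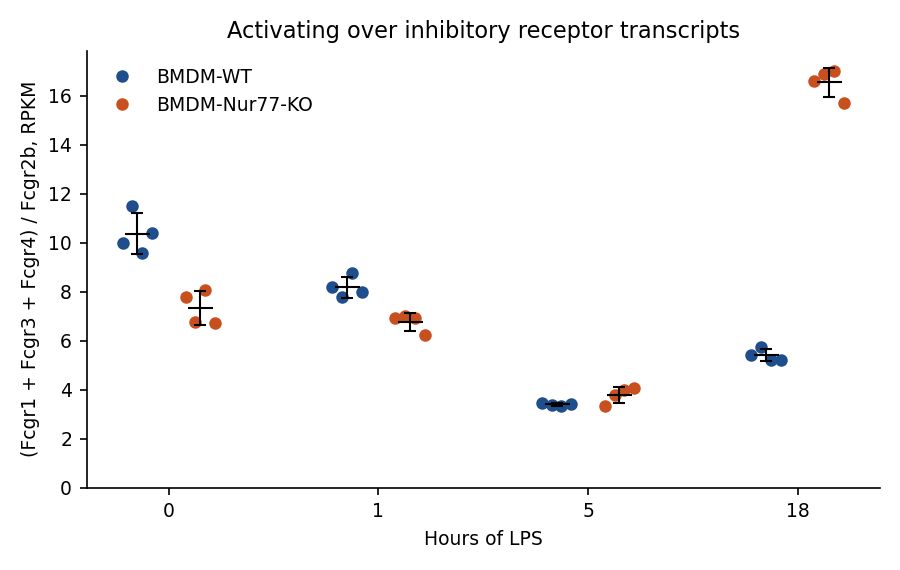
Summed RPKM of Fcgr1, Fcgr3 and Fcgr4 over the RPKM of Fcgr2b (vertical axis, from 0) in every library against hours of LPS, for BMDM-WT (blue) and BMDM-Nur77-KO (orange), with mean and SD in black. Both genotypes fall to between 3.35 and 4.09 at 5 h, and at 18 h the knockout libraries stand at 15.7 to 17.0 against 5.23 to 5.76 in BMDM-WT.

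Over the 32 libraries, Fcgr1 and Fcgr4 had the most alike levels among the members (Pearson r = 0.98 of log2 CPM), although they lie on different chromosomes. Fcgr1 and Fcgr3 were the least alike (r = 0.37). The libraries share the 8 groups, so these values describe a common course over LPS and genotype and are not independent samples. The genes tested that ran closest to Fcgr1 were Irf7 (r = 0.992), which encodes an interferon regulatory factor, Ifitm3 (0.991), an interferon-induced membrane protein, and Fgl2 (0.991). Closest to Fcgr4 were Fcgr1 (0.983), Slc7a8 (0.981), an amino acid transporter, and Ifi208 (0.981), of the interferon-inducible Ifi200 family. Fcer1g was followed by Ifi213 (0.973), of the same family, Npy (0.942) and Zdhhc2 (0.942). Fcgr2b had Tmed8 (0.916), Cyfip1 (0.915) and Ifnar1 (0.910), a chain of the type I interferon receptor, and Fcgr3 had Mtmr11 (0.890), Abcc4 (0.869) and Capza1 (0.849).

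Transcription factors known to act at Fc receptor promoters differed in direction among themselves. Irf1 at 18 h was higher in BMDM-Nur77-KO, at 659 to 750 CPM against 400 to 455 CPM in BMDM-WT (log2 fold change 0.72, standard error 0.09, adjusted p = 4.2e-07). Irf8 was higher at 5 h (0.34, adjusted p = 0.0014) and at 18 h (0.49, adjusted p = 8e-06). Spi1, which encodes PU.1, was called only at 5 h (-0.23, adjusted p = 0.0498), and that call was lost under 5 of the other settings and without any of 5 libraries (KO replicates 1 or 2 or WT replicates 1, 2 or 3 at 5 h).

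The signalling genes downstream of the receptors were measured in full, 47 of 47 passing the filter. In BMDM-Nur77-KO 5 of them were higher and 2 lower at 1 h, at 5 h 5 higher and 9 lower, and at 18 h 6 higher and 5 lower. As shares these were 14.9%, 29.8% and 23.4% of the list, beside 6.53%, 24.4% and 21.7% of all genes called in either direction, and the medians of the list lay between -0.05 and 0.06. The counts at 1 h and 5 h were not firm: in place of 7 and 14 genes called, the fit on the compared libraries alone gave 21 and 1, and leaving out single libraries gave 3 to 6 and 8 to 19. The lowest came without knockout replicate 2 (3 genes) or WT replicates 2 or 3 (4 each) at 1 h, and without WT replicate 2 (8) or replicate 1 of either genotype (9 each) at 5 h. The widest differences at 18 h were in Dok2, an adaptor that restrains tyrosine kinase signals, at 8.21 to 10.3 CPM against 20.5 to 25.4 CPM in BMDM-WT (log2 fold change -1.33, standard error 0.21, adjusted p = 1.1e-05), and in Malt1, the protease of the Card9-Bcl10 complex, at 506 to 725 against 209 to 269 CPM (1.24, standard error 0.14, adjusted p = 4.3e-08). Of the Src family kinases, Fgr was lower (-0.96, standard error 0.13, adjusted p = 7.2e-07) and Src higher (0.63, standard error 0.17, adjusted p = 0.0053).

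Direct effectors of the receptors were named after their values were seen. Syk, which binds the phosphorylated gamma chain, was not called at 1, 5 or 18 h, with 984 to 1219 CPM against 918 to 988 CPM at 18 h (log2 fold change 0.24, adjusted p = 0.0545). Inpp5d, the SHIP-1 phosphatase that the inhibitory receptor recruits, was lower at 18 h, at 165 to 230 CPM against 279 to 306 CPM (-0.49, standard error 0.12, adjusted p = 0.0022). It was not called at 1 h (-0.20) or 5 h (0.02). Plcg2, the phospholipase that turns over membrane inositol lipids, was lower at 5 h (-0.42, adjusted p = 4.3e-05) and at 18 h (-0.33, adjusted p = 0.00029).

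Of 17 receptors and adaptors that pair with the common gamma chain or are related to it, 12 passed the filter. The knockout had 1 higher and 3 lower at 1 h, 2 higher and 1 lower at 5 h, and 1 higher and 4 lower at 18 h, where 6.53%, 24.4% and 21.7% of all genes were called in either direction. Clec4n (Dectin-2), a fungal receptor that signals through the gamma chain, had 16.4 to 21.4 CPM against 33.7 to 42.3 CPM at 18 h (log2 fold change -1.05, standard error 0.13, adjusted p = 2.1e-07). Clec4d, another C-type lectin of the chain, was lower by less (-0.47, adjusted p = 0.00011). Clec4e, a further C-type lectin of the list named after its values were seen, did not go with them at 18 h. It was not called there by edgeR (0.33, adjusted p = 0.17), though it was lower at 1 h (-0.58, adjusted p = 0.031). Cd300lb, which pairs with the sister adaptor Tyrobp, fell to 50.2 to 56.6 CPM against 98.6 to 109 CPM (-0.93, standard error 0.07, adjusted p = 2.6e-11). Clec7a (Dectin-1), which carries a signalling motif of its own, was higher, at 259 to 452 against 128 to 184 CPM (1.11, standard error 0.16, adjusted p = 2.3e-06). Tyrobp itself was not called at 18 h (-0.33, adjusted p = 0.13).

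Of 14 other genes of Fc receptors or related to them, 4 passed the filter. Fcrl1, an Fc receptor-like gene known from B cells, was lower at 1, 5 and 18 h, at low levels, with 8 to 15 counts in the knockout and 34 to 48 in BMDM-WT at 18 h (3.99-fold lower, adjusted p = 4.5e-06). The B cell markers summed to under 5 CPM in every library, at 1.69 to 2.93 CPM against 1.73 to 3.92 CPM at 18 h, and their part in it was not tested. Fcgrt, the neonatal Fc receptor that recycles immunoglobulin G, was lower at 18 h (-0.67, standard error 0.18, adjusted p = 0.0079). Trim21, the cytosolic antibody receptor and an interferon-induced gene, was higher at 18 h, at 203 to 222 CPM against 132 to 148 CPM (0.62, standard error 0.09, adjusted p = 1.7e-06). Fcrlb, near Fcgr2b on chromosome 1, was called lower at 5 h with 2 to 30 counts against 28 to 36 (-1.28, adjusted p = 0.013).

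The chromosome 1 members were set beside the genes around them, since the choice had noted a difference there at rest. Within 1 Mb of the span, from 169960558 to 172234349, 60 other genes are annotated, of which 42 passed the filter. Of them, 14 were lower and 2 higher in the knockout at 1 h, at 5 h 15 lower and 6 higher, and at 18 h 18 lower and 5 higher. The fit on the compared libraries alone called 9 at 5 h. Beside these, 3.06%, 10.7% and 9.93% of all genes were lower at the same times and 3.48%, 13.7% and 11.7% higher. The median log2 fold change of the 42 was -0.20, -0.28 and -0.21. The stretch was chosen for its difference at rest, in other libraries of the same genotypes, and neighbouring genes are not independent of each other. Nr4a1 itself lies on chromosome 15, so this stretch is not beside the deleted locus. The deletion and a chromosome 1 stretch that differs between the mice of the genotypes cannot be told apart in this design.

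At 18 h, 4 neighbours had a wider difference than any member, 3 of them lower and Slamf1 higher in the knockout. Sh2d1b1, an adaptor of SLAM family receptors, had 0 to 2 counts in the knockout and 46 to 74 in BMDM-WT at 18 h. Cd244a, a SLAM family receptor, had 4 to 9 counts against 60 to 74 (log2 fold change -3.46, standard error 0.32, adjusted p = 9.6e-10). Gm7694 had 14 to 24 counts against 158 to 224 at 1 h (-3.49, standard error 0.22, adjusted p = 1e-12), and fewer in both genotypes at 18 h. Alyref2 was lower at all 3 times, with -1.80, -1.76 and -1.93. Other genes went up: Slamf1 had 426 to 603 counts against 94 to 104 at 18 h (2.20, standard error 0.13, adjusted p = 1.5e-13), and Adamts4 16 to 27 against 5 to 7 (1.67, standard error 0.31, adjusted p = 0.00014).

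Apoa2, beside Fcer1g, was not called at 1, 5 or 18 h. Apoa2 was low, with group means of 0.961 to 2.03 CPM. Fcrla and Mir6546, next to Fcgr2b and inside Fcgr3, did not pass the filter. Fcgr1, on chromosome 3, was also called lower in the knockout, though its calls at 1 h and 18 h were not firm. Whether its difference and that of the stretch have the same source was not tested.

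**Figure D4:**
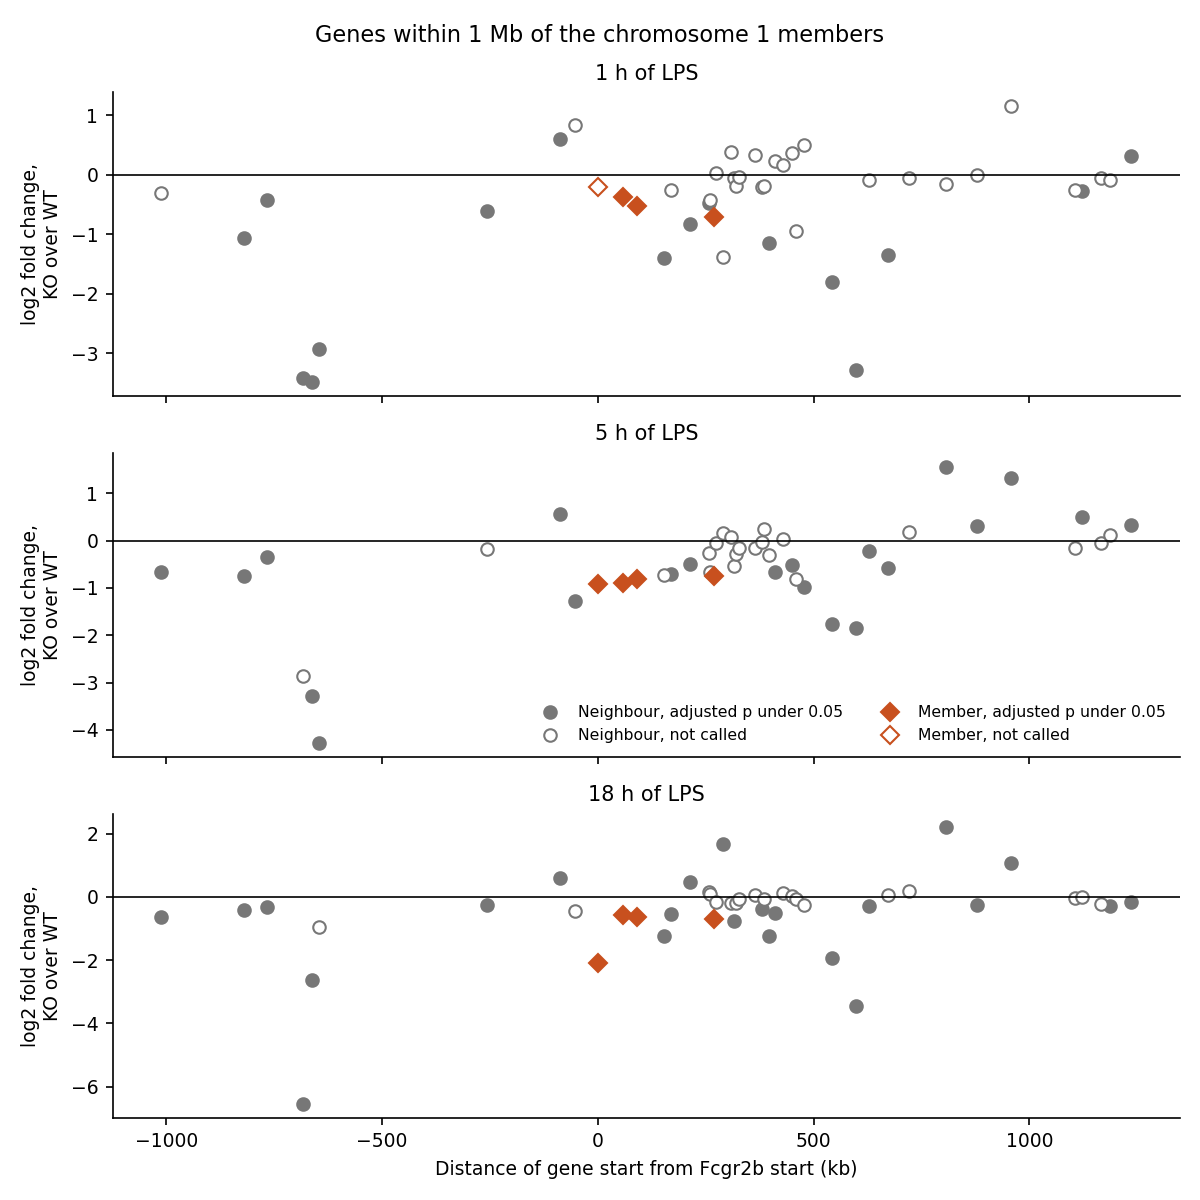
Log2 fold change of BMDM-Nur77-KO (KO) over BMDM-WT (WT) for the 4 chromosome 1 members (orange diamonds) and the 42 neighbours tested (grey circles), against the distance of the gene's start from that of Fcgr2b in kb, at 1, 5 and 18 h of LPS. Filled symbols were called at an adjusted p under 0.05. At 18 h 18 neighbours are called lower and 5 higher, and Sh2d1b1, Cd244a and Gm7694 lie below Fcgr2b.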

How the data were processed

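Gene expression was measured by paired-end, strand-specific poly(A) RNA-seq (150-base reads) in 32 BMDM libraries. Per the labels and methods, the authors aligned reads to mm10 with HISAT2 2.1.0, kept well-mapped reads and counted them per RefSeq transcript with HOMER. The deposited values are estimated counts in steps of 0.5 (28.6% not whole), not normalized, and were rounded here. Rows were matched to symbols (42198 by RefSeq accession, 70 by GENCODE M21, 93 unnamed and left out, holding 0.233% to 1.37% of counts per library), and the row with the highest mean count stood for each gene. CPM used library totals scaled by TMM factors, and RPKM used transcript lengths from GENCODE M21, with the Fcgr3 length from its other transcript.

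Of 25067 genes, 11186 with a mean above 1 RPKM in at least 1 group were fitted with edgeR 4.0.16 (R 4.3.3; TMM, glmQLFit, glmQLFTest), with 8 group means, and p-values were adjusted by Benjamini-Hochberg over all of them. All 5 members passed that filter. DESeq2 1.42.0, other scalings and filters, the fit on only the compared libraries, a replicate block, summed rows and each library left out were the alternatives. The script was tested on simulated counts. Replicate numbers were checked for pairing: same-numbered libraries deviated together no more than others (median r -0.02 against 0.00), so none was used. No 2 libraries agreed within sampling noise. Named genes were, in each list, the 4 largest differences at 18 h among those called and any past a log2 value of 1, the 6 largest of the neighbours and those beside a member, the listed factors, and the 3 genes most correlated with each member. Some genes that this rule names are not reported here. The members and lists were chosen with earlier results of these data known. Marker lists for dendritic cells, fibroblasts, T and NK cells and Ly6C-low monocytes were also summed. T and NK cell markers reached at most 1.24 CPM, fibroblast markers 1.87 CPM and dendritic cell markers 21.7 CPM in any library. The Ly6C-low list gave 2856 to 3313 CPM in BMDM-WT and 3849 to 5233 CPM in BMDM-Nur77-KO at 0 h. At 5 h it gave 2597 to 2999 against 3128 to 4463 CPM, and at 1 h and 18 h the genotypes overlapped. Nearly all of this sum was Cd36, at 721 to 5215 CPM over the libraries, so it describes Cd36 more than the list. Ace, Treml4, Ear2 and Spn reached at most 0.703, 5.53, 3.83 and 19.3 CPM. Intervals cover the spread between libraries.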

Additional observations from a re-analysis of the deposited data

Results flagged for a closer look

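Fcer1g in BMDM-WT at 18 h had 912 CPM in replicate 3, apart from the other libraries of its group, of which the nearest had 1034 CPM. Chance flags about 1 in 20 groups, and 40 groups of a member were examined. Without this library the genotype difference at 18 h stayed called.

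The change over time differed between genotypes, by edgeR's test of the difference itself, in 3 cases. For Fcgr2b the change from 1 h to 18 h was smaller in the knockout by -1.87 on the log2 scale (adjusted p = 9.8e-10) and that from 1 h to 5 h by -0.71 (adjusted p = 0.0084). For Fcgr4 the change from 1 h to 5 h was smaller by -0.53 (adjusted p = 0.0497).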

How the results depend on the processing

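No member changed direction past a threshold, and Fcgr2b, Fcgr3, Fcgr4 and Fcer1g kept their genotype calls at 5 h and 18 h under every setting but the limit on the log2 fold change. The members called for the change from 1 h to 5 h fell from 2 to 1, by the loss of Fcgr4, with DESeq2 size factors, with filterByExpr, with no filter, with rows summed and with the replicate block, which moved no other count by over 1.5 times. With a limit on the log2 fold change also required, the members called were 1 at 1 h and 3 at 18 h between genotypes, 3 at 5 h of LPS in BMDM-WT and 3 in BMDM-Nur77-KO, and 1 for the change from 1 h to 5 h; signalling genes were 0, 1 and 4 at 1, 5 and 18 h, gamma chain partners 1 at 1 h and 3 at 18 h, and neighbours 12 at 5 h and 12 at 18 h. Fitted on the compared libraries alone, signalling genes were 21 at 1 h and 1 at 5 h, other Fc receptors 2 at 1 h and 0 at 5 h, and neighbours 9 at 5 h; DESeq2 also gave 2 other Fc receptors at 1 h. The cause of these was not tested. With single libraries left out, the members called ranged from 2 to 4 at 1 h, from 1 to 2 for the change from 1 h to 5 h, and from 0 to 1 at 1 h of LPS in BMDM-WT (Fcgr2b, without replicate 3 at 0 h); signalling genes ranged from 3 to 6 at 1 h and 8 to 19 at 5 h, partners from 2 to 4 and other Fc receptors from 1 to 2 at 1 h. With all transcript rows summed, which counts Fcgr2b and Fcgr3 from 2 rows each, the activating to inhibitory ratio was 9.13, 7.17, 2.58 and 3.53 in BMDM-WT and 6.45, 5.86, 2.84 and 10.5 in BMDM-Nur77-KO, in order of time. Another scaling moved the median of all genes by at most 0.09. Depth limits the low neighbours, not the members, whose lowest count was 685.5.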
